A study of Mus musculus with 3 samples.

Results

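The Serpina3 genes form a cluster of serine protease inhibitors (serpins) of clade A on mouse chromosome 12, where humans carry SERPINA3 alone, the gene of alpha-1-antichymotrypsin. A serpin offers the target protease a reactive loop as bait, is cleaved, and traps the enzyme in a covalent complex. The mouse paralogues differ mostly in that loop and so in the proteases they bind, and several are known as acute phase genes of the liver or as genes of inflamed tissue. The 9 genes Serpina3b, Serpina3c, Serpina3f, Serpina3g, Serpina3h, Serpina3i, Serpina3k, Serpina3m and Serpina3n were taken as the cluster, and a probe was assigned to a gene through its RefSeq accession. This gave 10 probes for 8 of the 9 genes, of 20825 genes with a probe on the array. No probe carried an accession that the gene table pairs with Serpina3g, so Serpina3g was not analysed here. The cluster was chosen because Serpina3f, Serpina3i and Serpina3n were among the highest ratios between the old p16-/- and old WT arrays, so those values are a description and support nothing.

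Mouse tail-tip fibroblasts were taken through reprogramming by introducing 4 factors (c-Myc, Klf4, Oct4 and Sox2), and total RNA was collected on day 8. The study design speaks of 2 independent experiments with different donors, of which 1 array per group was used here. There was 1 microarray for cells of p16-/- donors aged 22 months (old p16-/-), 1 for wild-type donors aged 22 months (old WT) and 1 for wild-type donors aged 2 months (young WT). All 3 groups received the same factors. p16, a product of Cdkn2a, holds back cell cycle entry by inhibiting cyclin-dependent kinases. The strain, the number of donors behind each array and the vector of the factors are not given in the sources used here. With 1 array per group, genotype, donor and culture cannot be told apart, no test was run and no difference has a replicate check. In RNA of a whole culture, fewer cells of a type and less RNA per cell cannot be told apart either.

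Cdkn2a had processed signals of 28065 on old p16-/-, 65464 on old WT and 62705 on young WT. Whether its probes lie in the deleted stretch is unknown, so they check nothing about the genotype. Xist, the RNA that silences an X chromosome in females, had a signal of 1387 on old p16-/- and 1548 on old WT and fell short of the background call on young WT (13.8), so sex-linked expression differed together with age in any comparison with young WT. All 12 fibroblast markers were well above background on all 3 arrays, with 2 at least 2-fold higher and 1 lower on old p16-/- than on old WT. Over all 14691 genes well above background on 1 or both of these arrays, 5.85% were at least 2-fold higher and 6.63% lower. The surface marker Thy1 was at -3.99 on the log2 scale, with signals of 3287 on old p16-/- and 52045 on old WT, whereas Pdgfra was at 1.59 and Fap was also 2-fold higher. Markers of macrophages, which can also express Serpina3 genes, were 4 of 12 well above background on old p16-/-, 12 of 12 on old WT and 12 of 12 on young WT. Their summed signal was 17692 on old p16-/-, 25505 on old WT and 39983 on young WT, mostly from the brightest probe of Itgam (14934 on old p16-/-, 19071 on old WT and 19992 on young WT). Another Itgam probe read only 55.7 on old p16-/-, 65.2 on old WT and 136 on young WT. A further Itgam probe passed the background call on none of the arrays, so the sum rests on 1 probe that the others do not match. Of the 12 macrophage markers, 9 were at least 2-fold lower on old p16-/- than on old WT, 8 values being bounds, with a median log2 ratio of -1.98. The part of these cells in the Serpina3 signals was not tested. Of 10 hepatocyte markers, 3 passed the background call on old p16-/-, 4 on old WT and 3 on young WT. Apoa2 was the brightest, with signals of 3469 on old p16-/-, 5466 on old WT and 4935 on young WT. A second Apoa2 probe was not well above background on old p16-/- (10.1) and read 559 on old WT and 480 on young WT. Tat also passed on all 3 arrays, whereas Alb, Apoa1, Ttr, Fgb and Hnf4a passed on none.

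Of the 8 genes with a probe, 5 were well above background on both old arrays, and all 5 were at least 2-fold higher on old p16-/- than on old WT: Serpina3f, Serpina3i, Serpina3n, Serpina3b and Serpina3h. The share of all 14691 counted genes at least 2-fold higher was 5.85%, which is given as background only, since the cluster was picked from this contrast. A gene was counted where its probe passed the call "well above background" of Feature Extraction, the scanner's software, on 1 or both of the arrays compared. The median log2 ratio of the 5 members was 4.81, against 0.02 over all counted genes. Serpina3c, Serpina3k and Serpina3m passed the background call on neither of the old arrays. None of these 5 genes was 2-fold apart between old WT and young WT, where Serpina3f had the largest difference of the 5 (1.70-fold).

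Signals are given below as processed intensity with the error that Feature Extraction assigns to the spot. This error covers the measurement of 1 spot and not the spread between cultures. Every member probe was spotted once. Log2 ratios are differences of log2 signal after subtracting each array's 75th percentile, and their error combines those of both spots.

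**Figure D1:**
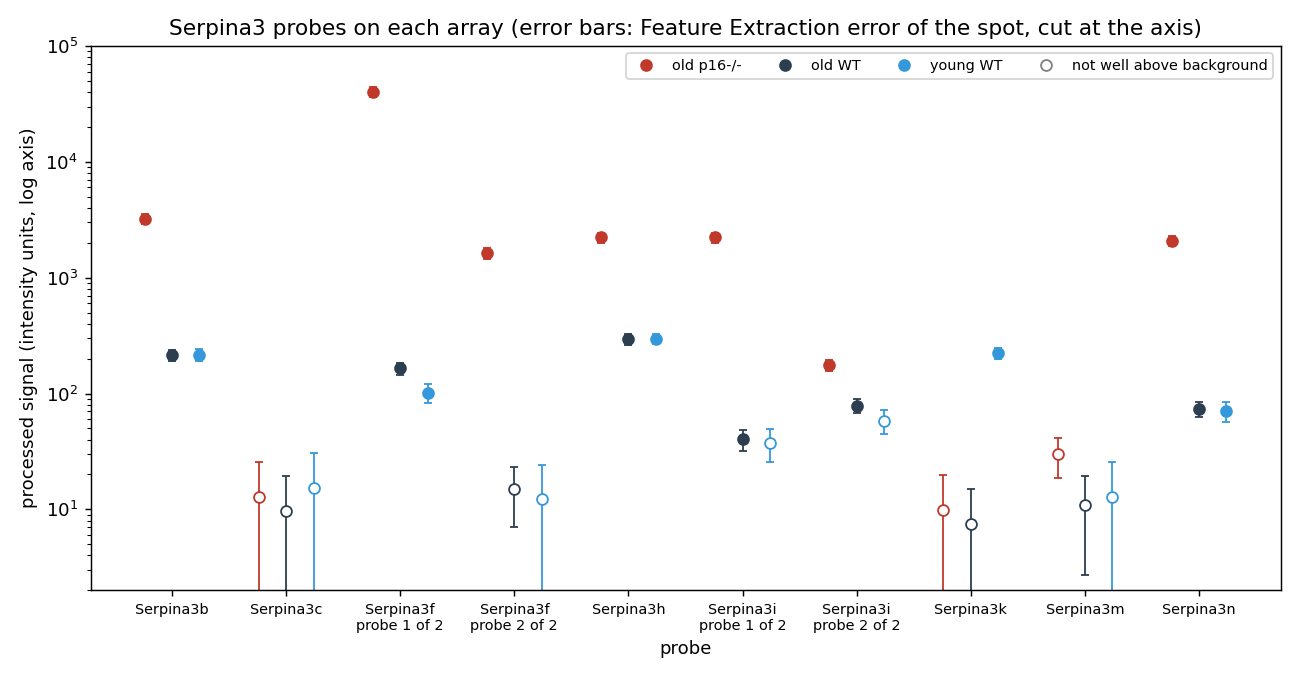
Processed signal (log axis, intensity units) of the 10 probes of the Serpina3 genes on the old p16-/- (red), old WT (dark) and young WT (blue) arrays, with the Feature Extraction error of each spot. The probes of Serpina3b, Serpina3f, Serpina3h, Serpina3i and Serpina3n stand higher on old p16-/- than on both WT arrays, whereas Serpina3c and Serpina3m are open points (not well above background) on all 3 arrays.

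Serpina3f, a paralogue in the middle of the cluster, had a signal of 40130 ± 4013 on old p16-/-, 165 ± 19.7 on old WT and 102 ± 19.4 on young WT. Its log2 ratio of old p16-/- over old WT was 7.91 ± 0.22 (241-fold), the highest of 13292 genes well above background on both arrays. A second probe of Serpina3f had 1623 ± 163 on old p16-/- and was not well above background on old WT (15.1) or young WT (12.2). By that probe Serpina3f was at least 45.3-fold higher on old p16-/- than on old WT (a log2 bound of 5.50). Both probes of Serpina3f were thus high on the old p16-/- array and low on both WT arrays.

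Serpina3n, the mouse gene most often set beside human SERPINA3 and an inhibitor of granzyme B, had a signal of 2080 ± 208 on old p16-/-, 73.8 ± 10.5 on old WT and 70.3 ± 13.5 on young WT. The log2 ratio of old p16-/- over old WT was 4.81 ± 0.25 (28.0-fold), rank 10 of the 13292 genes. The WT arrays differed in Serpina3n by less than the error of their spots.

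Serpina3i was read by 2 probes that differed in size. The brighter probe had 2228 ± 223 on old p16-/-, 40.3 ± 8.40 on old WT and 37.4 ± 12.0 on young WT, where it was not well above background. Its log2 ratio of old p16-/- over old WT was 5.78 ± 0.33 (55.0-fold). The other Serpina3i probe had 176 ± 20.6 on old p16-/-, 78.6 ± 11.3 on old WT and 58.4 ± 13.9 on young WT, the last of these not well above background. It gave a log2 ratio of 1.15 ± 0.27 (2.23-fold). Both probes of Serpina3i were highest on old p16-/-, but the size of the difference in Serpina3i depends on the probe.

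Serpina3b had a signal of 3233 ± 323 on old p16-/-, 215 ± 22.9 on old WT and 217 ± 24.9 on young WT. Its log2 ratio of old p16-/- over old WT was 3.90 ± 0.21 (14.9-fold). Serpina3h, annotated as a transcribed pseudogene in the RefSeq table, had 2229 ± 223 on old p16-/-, 295 ± 30.4 on old WT and 298 ± 31.8 on young WT. Its log2 ratio was 2.91 ± 0.21 (7.52-fold). For both genes the WT arrays were alike within the spot error and the old p16-/- array stood apart.

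By the brighter probe of each gene, the order of the log2 ratios was Serpina3f, Serpina3i, Serpina3n, Serpina3b and Serpina3h, and each gap between neighbours was larger than the errors of both ratios. By its other probe Serpina3i would come last. With normexp background correction in place of the processed signal, the ratios were smaller, at 7.23 for Serpina3f, 4.31 for Serpina3i and 3.93 for Serpina3n, and all 5 genes remained at least 2-fold higher on old p16-/-.

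**Figure D2:**
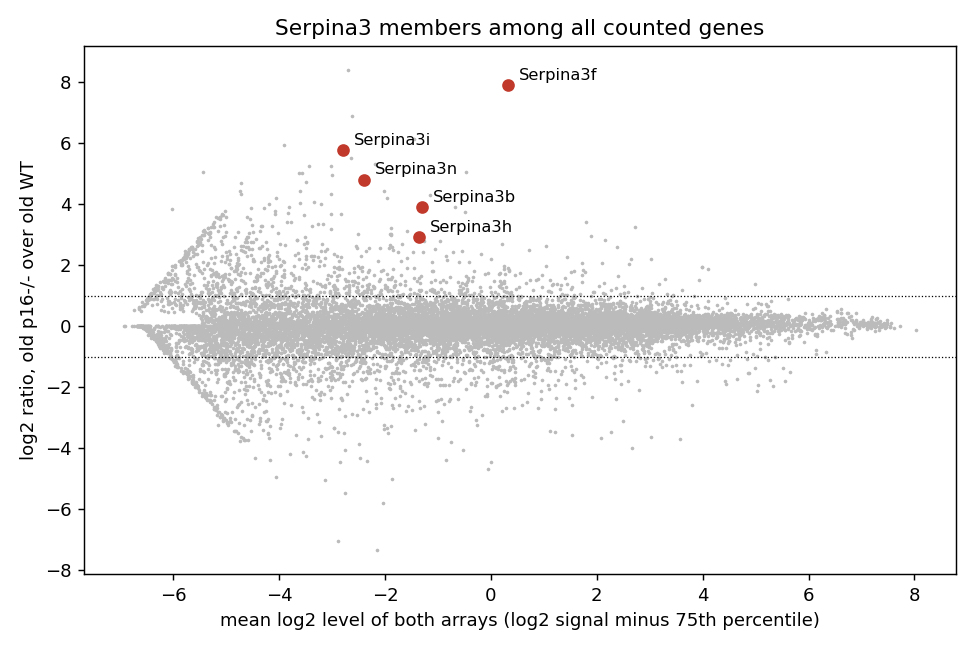
Log2 ratio of old p16-/- over old WT (vertical) against the mean log2 level of both arrays (horizontal, log2 signal minus the 75th percentile) for all 14691 counted genes in grey, with the 5 counted Serpina3 genes in red. Dotted lines mark 2-fold. The red points lie between 2.91 and 7.91, with Serpina3f highest.

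The remaining members were near background. Serpina3c, known as a kallikrein-binding protein, read 12.9 ± 12.8 on old p16-/-, 9.77 ± 9.74 on old WT and 15.3 ± 15.2 on young WT. Serpina3m read 29.9 ± 11.2 on old p16-/-, 11.0 ± 8.28 on old WT and 12.8 ± 12.8 on young WT. Neither Serpina3c nor Serpina3m was well above background on any array, and no ratio is given for them. Serpina3k, the liver serpin contrapsin, read 9.90 ± 9.85 on old p16-/- and 7.47 ± 7.46 on old WT, both at background, and 222 ± 25.0 on young WT. Its bound was -2.58 for old WT over young WT (at least 5.96-fold lower). Among 139 probes spotted 10 times that were dim on young WT, 66 of 1390 single spots (4.75%) passed the call, the brightest at 694. A lone spot at 222 lies in the range of such spots. Spots marked as outliers were kept in that count, whereas they were left out of the member values.

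Old WT over young WT compares donors of different age, with 1 array each. Xist also differed between these arrays, and 10 of 12 macrophage markers were at least 2-fold lower on old WT. Age cannot be told apart from these differences, from donor or from culture. Of the 6 members counted in old WT over young WT, 0 were at least 2-fold higher and 1, Serpina3k by its bound, was at least 2-fold lower on old WT. Among all 14546 counted genes the shares were 2.94% higher and 3.16% lower. Serpina3f was at 0.76 ± 0.32 on the log2 scale for old WT over young WT, the largest positive value of the members, and at 0.36 with normexp background correction. Serpina3n was at 0.13 ± 0.34, Serpina3b at 0.05 ± 0.23 and Serpina3h at 0.05 ± 0.21, each smaller than its error. Serpina3i was above background on old WT only, with a bound of 0.00.

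Old p16-/- over young WT is a comparison that shares an array with each of the others. Serpina3f was at 8.68, Serpina3n at 4.94, Serpina3b at 3.95 and Serpina3h at 2.96 on the log2 scale, with Serpina3i at a bound of 5.38. In all 5 of the 6 counted members were at least 2-fold higher and 1, Serpina3k, was lower by a bound of -2.19. Among all 14281 counted genes 6.34% were higher and 6.97% lower.

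Because the members are paralogues, a probe of one can take up transcripts of another. The scanner files give no probe sequences, so probes could not be compared base by base, and cross-hybridization was not tested. The probes of Serpina3c, Serpina3k and Serpina3m, and those of the further paralogues Serpina3a (13.3 and 9.29 on old p16-/-) and Serpina3j (9.49), were not well above background on the array where the Serpina3f probe read 40130. The probes of Serpina3b (3233), Serpina3h (2229), Serpina3i (2228 and 176) and Serpina3n (2080) did pass on that array. How much of their signal came from transcripts of Serpina3f or of Serpina3g, which has no probe, was not tested.

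In the order of genes along chromosome 12, Serpina3b lay between Serpina3a and Serpina3c, which did not pass the background call on old p16-/-, and Serpina3f, Serpina3h and Serpina3i lay side by side. Serpina3j, Serpina3k and Serpina3m followed, none of which passed on old p16-/-, and then Serpina3n at the end of the cluster. From Serpina3a to Serpina3n, the array holds 10 genes of the cluster, of which 5 were counted and 5 were higher. Among the 15 genes with a probe on each side, 16 of the 30 were counted, 1 was at least 2-fold higher and 4 were lower, with a median log2 ratio of -0.36. Over all counted genes 5.85% were higher and 6.63% lower. The 1 higher flanking gene was another clade A serpin, Serpina6, which encodes corticosteroid-binding globulin. Serpina6 had a signal of 315 ± 33.4 on old p16-/- and was not well above background on old WT (31.8) or young WT (16.8), a log2 bound of 3.14 over old WT. A second Serpina6 probe was dim on all 3 arrays. Of the spots of dim repeated probes on old p16-/-, 69 of 1400 (4.93%) passed the call. The brightest of them was at 870, outlier spots included, and the lone Serpina6 spot at 315 lies in that range. On the other side, Dicer1, which encodes the nuclease that matures microRNAs, was at -0.05, and Clmn was at -0.04. At the far end of the serpin genes, the interferon-induced Ifi27l2b and Ifi27 were at -4.44 and -1.54, lower on old p16-/- while the Serpina3 genes were higher.

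**Figure D3:**
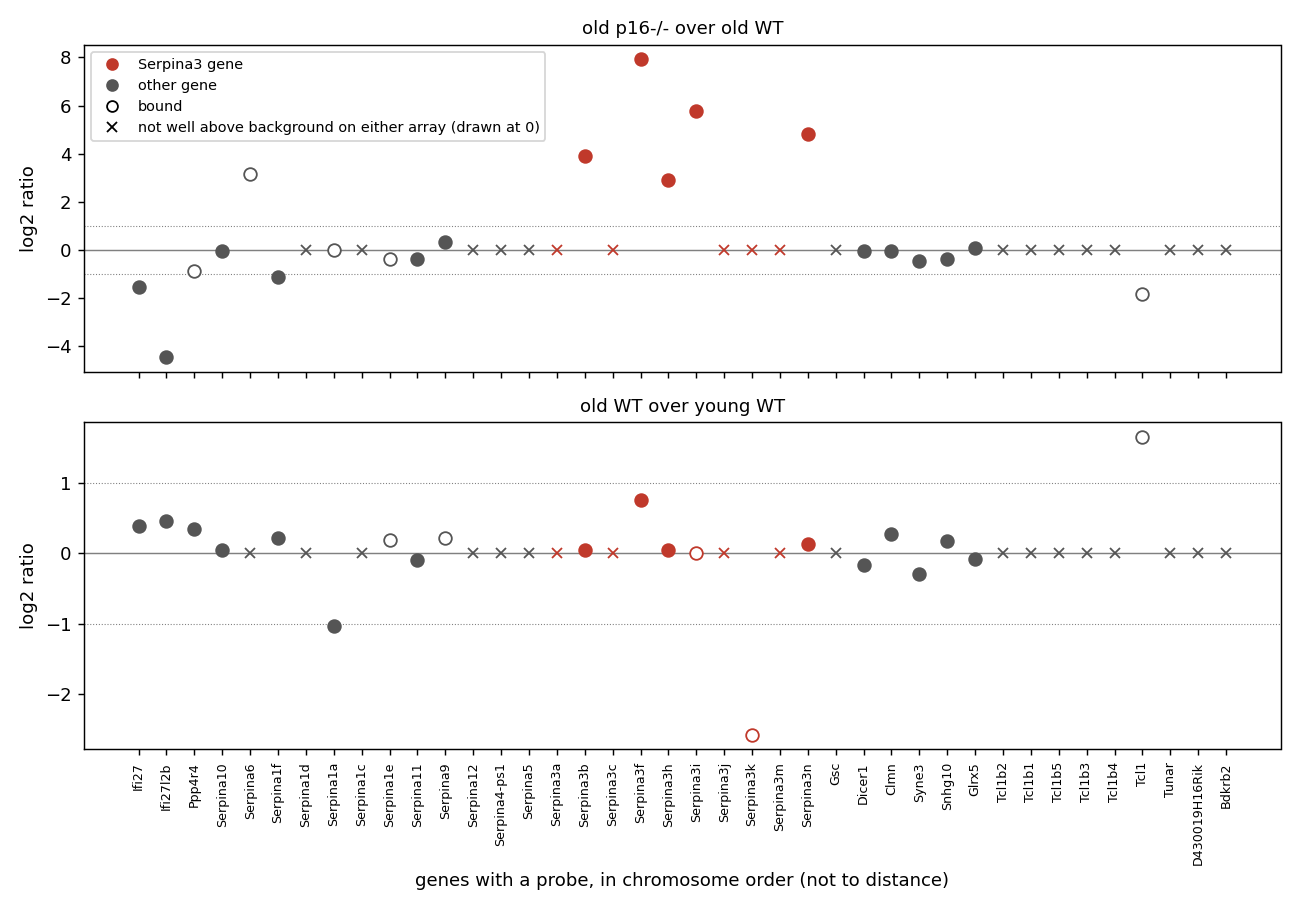
Log2 ratio of old p16-/- over old WT (upper panel) and of old WT over young WT (lower panel) for genes with a probe, in their order on chromosome 12 and not to distance, with Serpina3 genes in red. Open points are bounds and crosses are genes not well above background on either array. In the upper panel 5 Serpina3 genes lie between 2.91 and 7.91, and in the lower panel the same 5 lie between 0.00 and 0.76.

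The promoter sequences of the members were compared because 5 of them were high on the same array. RefSeq windows of the GRCm38.p6 build, from 250 bases before to 50 bases after the annotated start, were matched for 6 of the 9 members (Serpina3b, Serpina3c, Serpina3f, Serpina3g, Serpina3i and Serpina3n). The longest run of bases common to all 6 was 12 bases long, CATTTCCTAAGA. It is shown in capitals in the windows of 4 genes that were higher on old p16-/- and of Serpina3c, which was not detected. Each is printed 5′ to 3′ on the strand of the gene.
Serpina3f (chr12:104214294-104214593, plus strand): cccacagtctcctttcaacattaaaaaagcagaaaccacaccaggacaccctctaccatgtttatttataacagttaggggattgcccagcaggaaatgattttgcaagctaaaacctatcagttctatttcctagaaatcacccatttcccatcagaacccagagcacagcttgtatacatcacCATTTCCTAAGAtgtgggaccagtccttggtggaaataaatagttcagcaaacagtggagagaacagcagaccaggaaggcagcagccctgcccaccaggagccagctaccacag
Serpina3i (chr12:104262872-104263171, plus strand): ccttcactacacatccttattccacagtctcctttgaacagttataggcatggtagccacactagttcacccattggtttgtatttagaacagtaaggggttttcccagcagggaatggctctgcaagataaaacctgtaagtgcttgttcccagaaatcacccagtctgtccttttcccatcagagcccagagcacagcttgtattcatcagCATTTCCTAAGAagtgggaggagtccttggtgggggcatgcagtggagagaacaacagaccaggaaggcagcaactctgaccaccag
Serpina3n (chr12:104406458-104406757, plus strand): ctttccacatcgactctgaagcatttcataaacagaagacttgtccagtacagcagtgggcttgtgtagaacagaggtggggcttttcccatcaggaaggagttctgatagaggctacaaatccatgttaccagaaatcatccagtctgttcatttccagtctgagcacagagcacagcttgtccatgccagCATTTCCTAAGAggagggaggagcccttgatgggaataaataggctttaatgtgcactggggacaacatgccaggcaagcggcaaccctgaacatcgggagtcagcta
Serpina3b (chr12:104127746-104128045, plus strand): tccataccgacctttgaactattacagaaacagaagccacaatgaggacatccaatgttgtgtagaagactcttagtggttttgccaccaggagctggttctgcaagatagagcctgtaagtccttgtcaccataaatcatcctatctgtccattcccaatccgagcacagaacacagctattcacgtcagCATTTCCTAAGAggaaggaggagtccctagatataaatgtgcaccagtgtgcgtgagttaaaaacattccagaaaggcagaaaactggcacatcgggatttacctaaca
Serpina3c (chr12:104153823-104154122, minus strand): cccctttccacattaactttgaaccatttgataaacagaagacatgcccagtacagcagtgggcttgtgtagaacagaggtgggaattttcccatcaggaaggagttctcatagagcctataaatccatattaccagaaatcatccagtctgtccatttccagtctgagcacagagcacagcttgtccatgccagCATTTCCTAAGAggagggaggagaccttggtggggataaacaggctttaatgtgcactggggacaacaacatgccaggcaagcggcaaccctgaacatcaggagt

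Counted from the annotated start, the run lay at -65 to -54 in Serpina3f, -37 to -26 in Serpina3i, -58 to -47 in Serpina3n, -59 to -48 in Serpina3b, -55 to -44 in Serpina3c and 33 to 44 in Serpina3g, where it follows the start. In all, 12 of 32851 windows in the table (0.0365%) hold it on either strand, 7 of them in the cluster and 5 at genes elsewhere. The run was defined as common to the matched member windows, so its presence in each of them was fixed in advance. The windows of Serpina3a and Serpina3j were not used to define the run and do not hold it. Neither gene was detected on any array, but Serpina3c was not detected either and holds the run. A link between the run and expression was not tested. Some of the windows are alike along their length. Serpina3n and Serpina3c were identical at 89.9% of 306 alignment columns, and Serpina3f and Serpina3i at 67.9% of 336. Serpina3g was less alike, from 40.9% with Serpina3b to 51.1% with Serpina3i.

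Matches to short motifs of factors linked to acute phase genes were also listed, on both strands, as a description of letters and not of binding. The STAT motif TTCNNNGAA was in the windows of Serpina3f (bases -121 to -113 from the start), Serpina3i (-102 to -94) and Serpina3g, 3 of 6 members, against 8.30% of all windows. The C/EBP core TTGCNNAA was in 2 of 6, Serpina3f and Serpina3b, against 10.8%. The glucocorticoid receptor core TGTTCT was in 5 of 6 against 19.0%, and the NF-kB motif of 3 G, 5 bases of any kind and 2 C was in 5 of 6 against 50.8%. Serpina3c, alone of the 6, had no match to the NF-kB motif. None of these matches in the 6 windows overlapped the shared run.

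Genes of the signals that are known to act on Serpina3 genes were then read from fixed lists. In the acute phase and IL-6/STAT3 list, 3 of 19 counted genes were higher on old p16-/- than on old WT by 2-fold or more and 1 was lower, with a median log2 ratio of 0.11. The copper-carrying ferroxidase ceruloplasmin gene Cp was at 2.55 (signals of 1330 on old p16-/- and 226 on old WT), the fibrinogen gene Fga at a bound of 1.97 and the serum amyloid gene Saa3 at 1.94 (558 on old p16-/- and 145 on old WT). The metalloreductase gene Steap4 was lower by a bound of -1.04. Timp1 was at -0.08 and Cebpd, a transcription factor of the acute phase, at 0.06. The receptor gene Osmr was at 0.11, Stat3 at -0.28, and Socs3, a STAT3 target that feeds back on the pathway, at 0.15. Second probes of Cp and Fga passed the background call on none of the arrays. No other counted gene of the list was 2-fold apart. Over all counted genes in this comparison, 5.85% were at least 2-fold higher and 6.63% lower.

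In the glucocorticoid response list, 1 of 13 counted genes was at least 2-fold higher, Cdkn1c at 1.17, and 0 were lower (median -0.07). The metallothionein genes Mt1 and Mt2 were at -0.07 and 0.02, and the receptor gene Nr3c1 was at 0.01. In the NF-kB response list 0 of 13 were higher and 2 were lower, the chemokine genes Ccl5 at -1.33 and Cxcl5 at -1.04 (median -0.22). Ccl2 was at -0.56 and Sod2 at 0.21.

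In the interferon-gamma response list 0 of 15 counted genes were higher and 10 were at least 2-fold lower on old p16-/-, with a median of -1.39. The GTPase genes Irgm2 and Gbp3 were at -3.26 and -2.92, the chemokine gene Cxcl10 at -2.74 and the class I activator Nlrc5 at -2.44 (a second Nlrc5 probe was not well above background). The receptor genes Ifngr1 and Ifngr2 were at -0.10 and -0.49. The Serpina3 members had a median of 4.81 in this comparison, from which the cluster was chosen, so both medians are a description only. A part of interferon-gamma in the Serpina3 signals was not tested. The share of all counted genes at least 2-fold lower in this comparison was 6.63%.

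**Figure D4:**
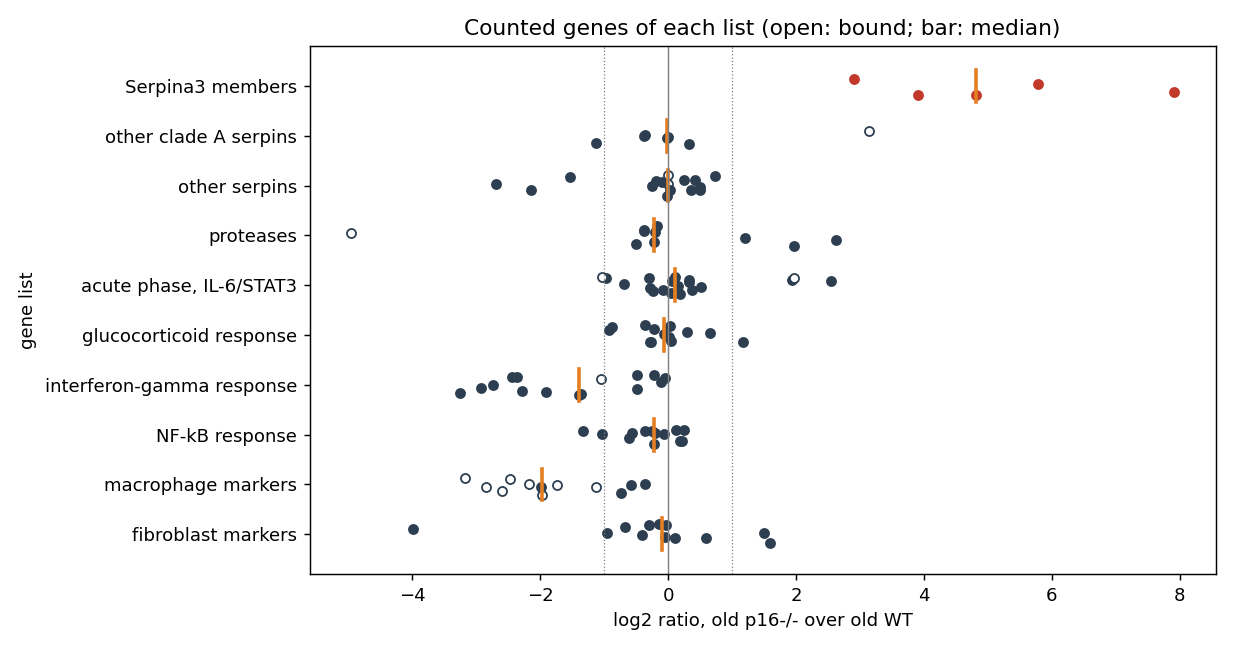
Log2 ratio of old p16-/- over old WT for the counted genes of 10 lists, 1 point per gene, with bounds open and the list median as an orange bar. The Serpina3 members (red) have a median of 4.81, against -1.39 for the interferon-gamma response list and 0.11 for the acute phase list.

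Serpins outside the Serpina3 cluster went both ways. In the list of clade A serpins outside the members, 7 of 14 genes with a probe were counted, with Serpina6 at least 2-fold higher and Serpina1f lower (-1.13, signals of 55.9 on old p16-/- and 121 on old WT). Serpina10 was at -0.02, Serpina11 at -0.36, Serpina9 at 0.33, Serpina1e at a bound of -0.37 and Serpina1a at a bound of 0.00. Among serpins of other clades, 0 of 16 that were counted reached 2-fold higher and 3 were 2-fold lower. Among these, Serping1, the C1 inhibitor of complement, was at -2.70 (-2.64 by a second probe). Serpinf1, pigment epithelium-derived factor, was at -1.53 (-1.68 by a second probe). The bright Serpinb6a and the collagen chaperone gene Serpinh1 were at -0.10 and -0.26. All counted genes in this comparison had shares of 5.85% at least 2-fold higher and 6.63% lower.

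Of proteases that Serpina3 proteins or their relatives are known to bind or that act beside them, 10 of 14 were counted, 3 were at least 2-fold higher on old p16-/- and 1 was lower. The shares over all counted genes were 5.85% higher and 6.63% lower. The kallikrein gene Klk1 was at 2.63 (880 on old p16-/- and 141 on old WT), the granule protease genes Ctsg and Mcpt4 at 1.97 and 1.20. Signals of these 3 were under 1000 on both arrays. Ctss, a lysosomal protease of macrophages, was lower by a bound of -4.96, alongside the macrophage markers described above, and the part of those cells in it was not tested. Ctsl and Ctsb, lysosomal proteases of most cells, were at -0.17 and -0.21. Elane, which encodes neutrophil elastase, was at -0.37, and Gzmb, which encodes granzyme B, at -0.50.

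Likeness to Serpina3n and Serpina3f over the 3 arrays was measured by the Euclidean distance between mean-centred log2 levels. The search covered 8728 genes with a signal of at least 1000 on their brightest array. Serpina3 genes and genes with a placeholder symbol (such as Gm or Rik names) were left out of it. The 5 nearest genes were taken for each. For Serpina3n they were Cst13 (distance 0.12), a cystatin family gene, the alpha-globin gene Hba-a2 (0.38), the surface glycoprotein gene Cd200 (0.43), the transglutaminase subunit gene F13a1 (0.64) and Stac (0.65). For Serpina3f they were H60b, which encodes a ligand of the receptor NKG2D, Ifi214, the amylin gene Iapp, Ifi202b and Hba-a1. No distance is given for these 5, since their levels on young WT, and those of H60b, Ifi214 and Ifi202b also on old WT, were not well above background. Among the genes nearest Serpina3n, Cst13 and F13a1 were likewise at background on young WT. Cd200 had signals of 4165 on old p16-/-, 209 on old WT and 136 on young WT. H60b had 4244 on old p16-/- and was not well above background on old WT (26.7) or young WT (12.5). These genes entered the search through their signal on old p16-/-, the array from which the Serpina3 genes were chosen, so the likeness is a description of 3 arrays.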

How the data were processed

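Total RNA of day 8 cells was labelled with Cy3 and hybridised to 1-colour Agilent oligonucleotide arrays. The deposited values are linear spot intensities from Feature Extraction 11.5.1.1, background-subtracted and spatially detrended and not normalized between arrays, per the file headers. The deposited value table equalled these intensities to a relative 0.0001 for all of the 39030 singly spotted probes, so its scale is linear and it is not centred. Its column medians were 132 for old p16-/-, 135 for old WT and 137 for young WT.

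Control spots (1377) and spots marked as outliers (267, 246 and 246 on old p16-/-, old WT and young WT) were left out, and 150 of 39429 probes had no other spot on some array. No spot was saturated. Log2 intensity was averaged per probe, and the 75th percentile over an array's probes was taken off. Probes were named through unversioned RefSeq accessions (GRCm38.p6 table), which named 27508. The array was designed on mm9, so no coordinates are given for probes. The brightest probe stood for a gene. Where 1 of 2 arrays was not well above background, the ratio is a bound, taken against the lowest level well above background there, or the dim probe's own if that was higher (signals of 46.9, 35.7 and 55.4 on old p16-/-, old WT and young WT), and a bound under 1-fold was entered as 0. Over the 10 spots of 399 repeated probes, log2 signal had a median SD of 0.0529, 0.0563 and 0.0542 on the same arrays. Precision is limited by having 1 array per group.

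Members, lists and the rule for named genes were chosen with earlier results of these data known. The rule names all members and their probes, detected clade A serpins, and of each other list up to 4 genes furthest from 0 among those 2-fold apart and up to 2 bright ones that were not. It adds Cdkn2a, Xist and the 5 genes nearest in pattern. A gene that the rule takes is not reported here. Further genes were named beside these after their values were seen. They were Osmr, Stat3, Socs3, Nr3c1, Elane, Gzmb, S100a9, Tpsb2, Dicer1, Clmn and Hnf4a with the other undetected markers. Alternatives used limma 3.58.1 in R 4.3.3, and promoters were aligned with Biopython 1.88. The code for ratios and counts was checked on simulated arrays with known fold changes, which it recovered.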

Additional observations from a re-analysis of the deposited data

How the results depend on the processing

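No replicate could be left out and no paired analysis was possible because each group has 1 array. Over 10 alternatives, the 5 Serpina3 genes higher on old p16-/- than on old WT kept their direction and at least 2-fold size, with log2 ratios from 7.23 to 7.97 for Serpina3f, 3.47 to 5.88 for Serpina3i, 3.93 to 4.88 for Serpina3n, 3.51 to 3.95 for Serpina3b and 2.69 to 2.96 for Serpina3h. The other probes of Serpina3f and Serpina3i, at a bound of 5.50 and at 1.15, come on top of these. The low end was normexp background correction, except for Serpina3i, where it was the mean over both probes. Without a background filter Serpina3m was a sixth gene. The member that was 2-fold lower on old WT than on young WT, Serpina3k, was not counted with a filter on both arrays or at a signal of at least 1000, which left 0 members 2-fold apart, and ranged from -4.83 to -1.70 otherwise. Counts over all genes moved with the filter, which admits more or fewer genes, and with normexp, for which the cause was not tested. For old p16-/- over old WT they were 1834 as reported, 1217 with normexp, 1217 with a filter on both arrays, 2918 with none and 608 at a signal of at least 1000. For old WT over young WT they were 888, and 523, 457, 1695 and 152 under the same alternatives. For old p16-/- over young WT they were 1902, and 1211 with a filter on both arrays, 2947 with none and 676 at a signal of at least 1000. Normexp used spot medians, since the files used here hold no mean signal. At a signal of at least 1000, 67.8% of the genes 2-fold apart between old WT and young WT were higher on old WT, against 48.2% in the main setting. Probe signals near background limit Serpina3c, Serpina3k and Serpina3m.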

Other observations

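Markers of mast cells, neutrophils and T cells, which hold proteases that serpins bind, were 7 of 12 well above background on each array. The calcium-binding protein gene S100a8 was at 2.42 on the log2 scale for old p16-/- over old WT, with signals of 1739 on old p16-/-, 324 on old WT and 410 on young WT, whereas its partner S100a9 was at -0.29. The T cell genes Cd3e and Nkg7 were at 0.40 and 0.00, and the mast cell gene Tpsb2 was at -0.30. Cpa3, Kit, Ngp, Cd3g and Cd8a passed the background call nowhere. Of 6 counted astrocyte markers, 1 was at least 2-fold higher on old p16-/- than on old WT and 0 were lower, with a median log2 ratio of -0.09. The higher marker was S100b at 2.10, whereas Gja1 was at -0.19 and Aldh1l1 at -0.82. Asb2, a ubiquitin ligase subunit gene on the list of cluster neighbours, was higher on old p16-/- by a log2 bound of 3.77, with a signal of 490. Spots of dim repeated probes on that array also passed the background call, at signals up to 870.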
